A study of Mus musculus with 2 samples.

Results

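The genes described here are 9 genes of gluconeogenesis, the making of new glucose, measured in islet grafts that were removed with adjoining kidney tissue. They are Pck1, Pck2, Pcx, Fbp1, Fbp2, G6pc, Slc37a4, Ppargc1a and Foxo1. Each was represented by every probe set, other than the array's control probe sets, whose annotation gave exactly 1 gene symbol and that symbol was one of the 9. This took 19 of 45037 probe sets and 9 of 18193 genes. The hyperglycemic group was 1 graft sample from a male recipient heterozygous for the Akita allele, a missense mutation of the insulin gene Ins2 that leaves mice short of insulin. The normoglycemic group was 1 graft sample from a male wild type (WT) C57BL/6 recipient. They are named the hyperglycemic and the normoglycemic graft after their recipients. In both, 50 islets of WT C57BL/6 donors had been placed under the capsule of the left kidney, and total RNA of the graft was taken after 6 hours and hybridized to 1 Affymetrix array. The study gives an age at transplantation for the Akita recipients that were followed for blood glucose, but the text does not say whether it also holds for the recipients of the array samples, or how many mice each sample came from. With 1 array per condition there was no replicate, and no difference could be tested. Glycemia and genotype differed together between the recipients and cannot be told apart.

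Gluconeogenesis runs in liver and in the proximal tubule of the kidney, where lactate, glutamine and glycerol are turned into glucose. Pyruvate carboxylase (Pcx) makes oxaloacetate in mitochondria, and phosphoenolpyruvate carboxykinase, cytosolic (Pck1) or mitochondrial (Pck2), turns it into phosphoenolpyruvate. After the reversible steps shared with glycolysis, fructose bisphosphatase (Fbp1 in liver and kidney, Fbp2 best known from muscle) and then glucose 6-phosphatase (G6pc), fed by the glucose 6-phosphate transporter Slc37a4, complete the path. In liver, insulin lowers transcription of Pck1 and G6pc by keeping the transcription factor Foxo1 out of the nucleus, and the coactivator Ppargc1a acts with Foxo1 on these genes. Pancreatic beta cells also contain pyruvate carboxylase, so a graft with islets and kidney can hold Pcx transcripts of both.

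Promoter windows of 4 genes are shown, each with a match to a hormone response element. Pck1 and G6pc are the best known hormone-regulated members, Fbp2 had the highest ratio among the members, and Igfbp1, a classic insulin-repressed gene that is no member, had the highest ratio among the related genes described further on. Each window is the RefSeq sequence of GRCm38.p6 from 250 bases before to 50 bases after the annotated start, written 5′ to 3′ on the strand of the gene. Capitals mark a match to a cyclic AMP response element (TNACGTCA) in Pck1, and a match to the insulin response core (CAAAACA, or its reverse complement) in the other windows.

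Pck1 (chr2:173152823-173153122, plus strand): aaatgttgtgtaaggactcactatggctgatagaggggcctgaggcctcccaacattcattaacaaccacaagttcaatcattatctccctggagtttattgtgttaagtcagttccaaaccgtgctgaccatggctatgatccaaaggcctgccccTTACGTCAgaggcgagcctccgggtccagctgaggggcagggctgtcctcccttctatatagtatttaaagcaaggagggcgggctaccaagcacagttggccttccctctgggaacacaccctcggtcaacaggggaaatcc

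G6pc (chr11:101367466-101367765, plus strand): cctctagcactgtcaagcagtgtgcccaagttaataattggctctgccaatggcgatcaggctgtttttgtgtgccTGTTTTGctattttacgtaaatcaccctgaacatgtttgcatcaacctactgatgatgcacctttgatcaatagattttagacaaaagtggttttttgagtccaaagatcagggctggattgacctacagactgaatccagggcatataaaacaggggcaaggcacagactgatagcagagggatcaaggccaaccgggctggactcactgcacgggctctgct

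Fbp2 (chr13:62858351-62858650, minus strand): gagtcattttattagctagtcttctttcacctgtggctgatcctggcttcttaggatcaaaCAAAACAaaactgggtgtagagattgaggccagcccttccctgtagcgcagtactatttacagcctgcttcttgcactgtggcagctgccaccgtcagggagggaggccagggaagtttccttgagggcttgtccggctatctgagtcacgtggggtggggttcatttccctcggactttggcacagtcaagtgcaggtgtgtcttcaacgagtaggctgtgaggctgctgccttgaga

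Igfbp1 (chr11:7197537-7197836, plus strand): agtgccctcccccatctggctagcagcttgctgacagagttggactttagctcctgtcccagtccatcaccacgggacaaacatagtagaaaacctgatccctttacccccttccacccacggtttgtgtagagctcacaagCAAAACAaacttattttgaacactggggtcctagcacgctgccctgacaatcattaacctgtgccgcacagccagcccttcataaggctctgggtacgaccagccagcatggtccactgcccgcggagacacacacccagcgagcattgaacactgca

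All 9 members had at least 1 promoter window in RefSeq, 12 windows in all. The cyclic AMP element was found in 1 member, Pck1, beginning 93 bases before the start, and 2.93% of 32851 promoter windows held it. The insulin response core was found in 3 members, 174 bases before the start in G6pc, 189 in Fbp2 and 159 in Pck2, and 6.28% of all windows held it. Neither a Foxo consensus (GTAAACA, in 3.65% of windows) nor the TGTTCT hexamer of glucocorticoid receptor sites (in 19.0%) was found in a member window. Sequence farther than 250 bases before the start was not searched, so elements there would be missed. Members were counted once each, whereas the shares are per window. Both strands were searched, and no member window held a match to more than 1 of these motifs. A match describes the letters of these windows and says nothing about binding in the grafts.

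The deposited values were MAS5 signals in arbitrary units. After trimming 2% of probe sets at each end, both arrays had a mean signal of 500.0, whereas the median probe set was at 91.5 on the hyperglycemic array and 82.9 on the normoglycemic array. These medians served as a floor for low signals. Genes counted as measured if a signal on either array was at or above the floor of that array, and signals below it were raised to it before folds were counted. Where a gene had several probe sets, the brightest stood for the gene. Genes read by several probe sets gave a technical spread within the arrays, from differences between such readings, which is no replicate error. Its SD was 0.22 on the log2 scale at signals of 1024 and above, 0.35 at 256 to 1024 and 0.63 at 64 to 256. The hyperglycemic array was brighter for the 18 hybridization controls, by a median of 1.91-fold, while the signals as a whole were scaled to a common mean. Signals of different probe sets are not compared as amounts, since each probe set has its own brightness.

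All 9 members were measured in both grafts, on 16 of the 19 probe sets, and the other 3 probe sets were below the floor on both arrays. No member differed by more than 2-fold. The count was 0 of 9 genes over 2-fold higher in the hyperglycemic graft and 0 of 9 over 2-fold lower, where 4.33% and 2.15% of all 12538 measured genes were higher and lower. After scaling both arrays to the same median, these shares rest on 416 higher and 491 lower genes in place of 543 and 269, and the members still had 0 in each direction. On the level of probe sets the count was 0 of 16, against 6.47% of all measured probe sets in either direction. With shares this low among all genes, 0 of 9 was close to the background and is not a property of these genes alone. With the signals as deposited, the median log2 ratio of the members, hyperglycemic over normoglycemic, was -0.05, beside -0.06 for all measured genes. The ratios of the members ran from -0.45 for Pcx to 0.72 for Fbp2.

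**Figure D1:**
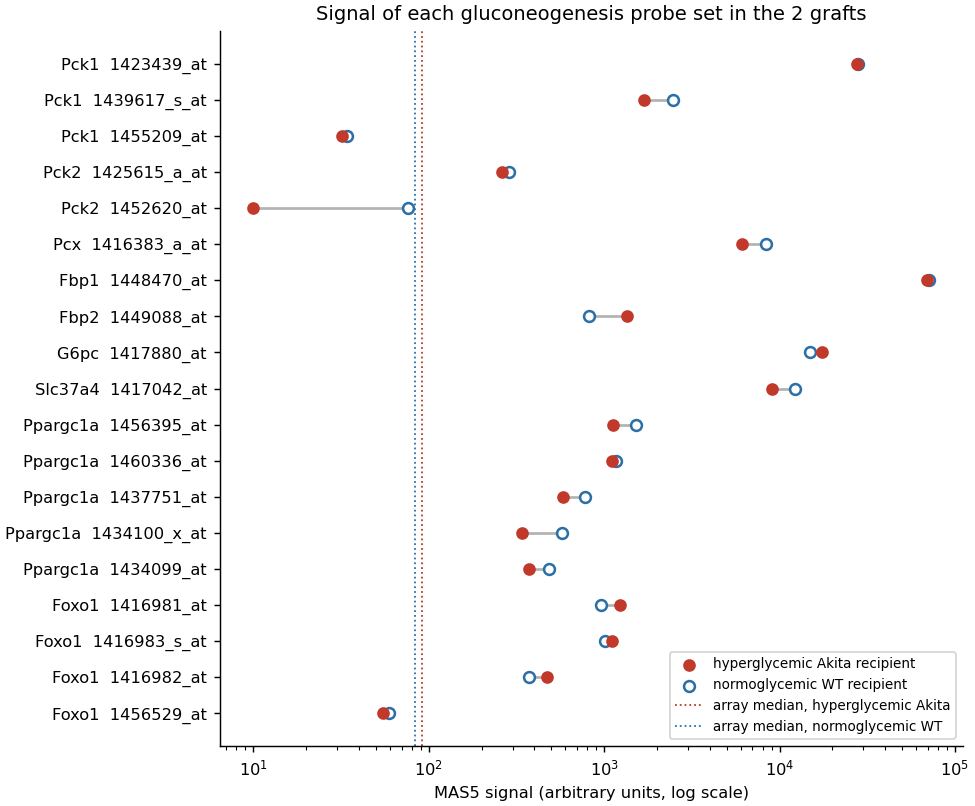
MAS5 signal (x axis, arbitrary units, log scale) of each of the 19 probe sets of the 9 members, with filled red points for the graft from the hyperglycemic Akita mouse and open blue points for the graft from the normoglycemic WT mouse. Dotted lines are the array medians used as the floor, and 3 probe sets, 1 each of Pck1, Pck2 and Foxo1, lie below it on both arrays.

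The enzymes that carry carbon into the path were near equal or somewhat lower in the hyperglycemic graft. Pck1, the cytosolic carboxykinase and the step most often taken as the marker of gluconeogenic capacity, had a signal of 27551 in the hyperglycemic graft and 27874 in the normoglycemic graft on its brightest probe set (1423439_at), a log2 ratio of -0.02. A second Pck1 probe set (1439617_s_at), of a kind that can bind several transcripts, read 1685 and 2467, a log2 ratio of -0.55. These probe sets of Pck1 thus disagreed by more than the technical spread of 0.22, and the near-equal signals hold for the brighter one only. The remaining one (1455209_at) was below the floor, at 32.0 and 34.0.

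Pck2, the mitochondrial carboxykinase, had a signal of 260 in the hyperglycemic graft and 288 in the normoglycemic graft (1425615_a_at), a log2 ratio of -0.15, within the technical spread of 0.35. Its other probe set (1452620_at) read 9.98 and 75.9, below the floor on both arrays, and no fold is given for it. Pcx, which makes the oxaloacetate that both carboxykinases use, had 6125 in the hyperglycemic graft and 8393 in the normoglycemic graft. That is 1.37-fold lower, a log2 ratio of -0.45, which was 2.04 times the technical SD.

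Pcx is also one of the transcripts that the array follows with control probe sets from its 5′ to its 3′ end, which were left out of the 19. The 3′ control probe set read 5267 in the hyperglycemic graft and 7965 in the normoglycemic graft, a log2 ratio of -0.60 and thus the same direction as the member probe set. The 5′ probe set read 318 and 324. One middle probe set (MA) read 159 and 92.2 and the other (MB) 186 and 350, log2 ratios of 0.79 and -0.91. The lower signal in the hyperglycemic graft was thus not read on every probe set. The middle probe sets were dim, and the technical SD is 0.63 at signals of 64 to 256. They do not settle whether the difference ran along the whole transcript. The 3′ signal was 16.6 times the 5′ signal in the hyperglycemic graft and 24.6 times in the normoglycemic graft. For Actb, which serves as a measure of RNA quality, these values were 3.99 and 3.54, and for Gapdh 1.76 and 1.30. The part of RNA quality in the lower Pcx signal was not tested.

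**Figure D2:**
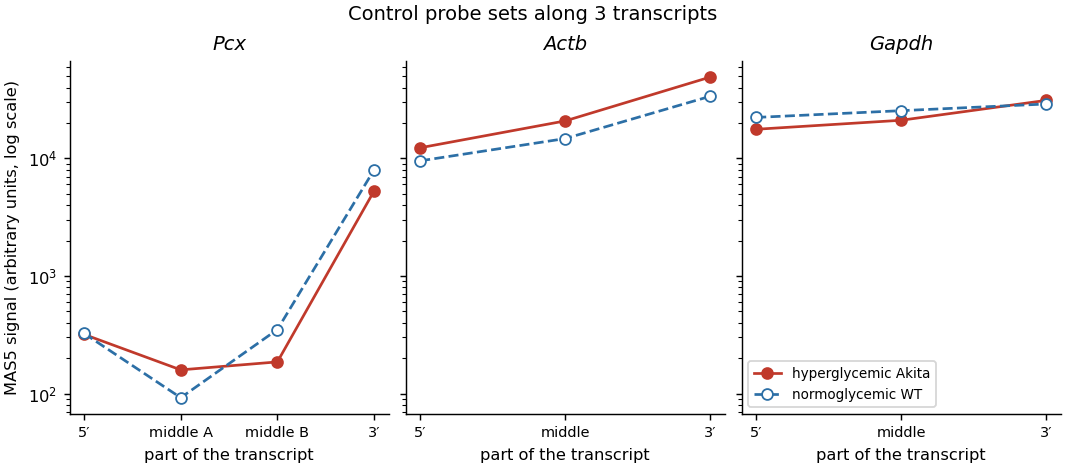
MAS5 signal (y axis, arbitrary units, log scale) of the control probe sets along the transcripts of Pcx, Actb and Gapdh, ordered from 5′ to 3′, in the graft from the hyperglycemic Akita mouse (filled red points) and the graft from the normoglycemic WT mouse (open blue points). For Pcx the 3′ probe set reads 5267 and 7965, the 5′ probe set 318 and 324, and the order of the grafts differs between the middle probe sets.

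The fructose bisphosphatases differed from each other. Fbp1, the isoform of kidney and liver, had a signal of 68762 in the hyperglycemic graft and 71022 in the normoglycemic graft, a log2 ratio of -0.05 that was within the technical spread. Fbp2, the isoform best known from muscle, had 1342 in the hyperglycemic graft and 817 in the normoglycemic graft. It was 1.64-fold higher, a log2 ratio of 0.72 and 3.21 times the technical SD, and it was the 1 member of 9 beyond 1.5-fold, where 21.1% of all measured genes lay beyond 1.5-fold in either direction. The Fbp2 signals lie on opposite sides of 1024, below which the SD is 0.35 and not 0.22. The multiple of 3.21 depends on that edge and would be smaller with 0.35. Fbp1 and Fbp2 had 1 probe set each, so no second reading was to be had. Of 6 skeletal muscle markers looked at beside Fbp2, 5 were below the floor on both arrays, among them Ckm (32.0 and 46.6) and Myh4 (13.0 and 30.8), the muscle creatine kinase and a myosin heavy chain, which were named after their values were seen. Acta1, skeletal muscle actin, reached the floor in the hyperglycemic graft only, at 103 against 43.8. The summed signal of the 6 markers was 280 in the hyperglycemic graft and 229 in the normoglycemic graft. These sums come mostly from signals below the floor and are not read as a difference. The part of muscle in the Fbp2 signal was not tested.

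The last steps of the path went in opposite directions by small amounts. G6pc, the phosphatase that frees glucose, had a signal of 17447 in the hyperglycemic graft and 14862 in the normoglycemic graft, 1.17-fold higher with a log2 ratio of 0.23, about as large as the technical SD of 0.22. Slc37a4, which brings glucose 6-phosphate to this enzyme in the endoplasmic reticulum, had 8990 in the hyperglycemic graft and 12286 in the normoglycemic graft. It was 1.37-fold lower, a log2 ratio of -0.45 and 2.02 times the technical SD. Enzyme and transporter, which work as a pair, therefore did not share a direction on these arrays. G6pc2, the islet relative of G6pc and no member, had 3786 in the hyperglycemic graft and 2323 in the normoglycemic graft (1.63-fold higher). G6pc3, the relative found in most tissues, had 421 and 493.

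The regulators were measured on several probe sets each, which gives their direction more readings. Ppargc1a, the coactivator PGC-1α, was lower in the hyperglycemic graft on all 5 of its probe sets, with log2 ratios from -0.76 to -0.09. Its brightest probe set (1456395_at) read 1128 in the hyperglycemic graft and 1518 in the normoglycemic graft, 1.35-fold lower. The next (1460336_at) read 1101 and 1167, within the technical spread, and the probe set with the lowest ratio (1434100_x_at) read 340 and 574, 1.69-fold lower. The 5 probe sets thus shared a direction but not a size.

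Foxo1, the transcription factor that insulin signalling inactivates, was higher in the hyperglycemic graft on the 3 probe sets that were measured. The brightest (1416981_at) read 1227 in the hyperglycemic graft and 956 in the normoglycemic graft, 1.28-fold higher with a log2 ratio of 0.36. The others read 1109 and 1005 (1416983_s_at) and 471 and 371 (1416982_at), log2 ratios of 0.14 and 0.34 that did not exceed the technical spread at their signals. The remaining probe set (1456529_at), below the floor, read 54.8 and 59.6. Probe sets of 1 gene share the RNA, so their common direction is no replicate of the comparison.

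**Figure D3:**
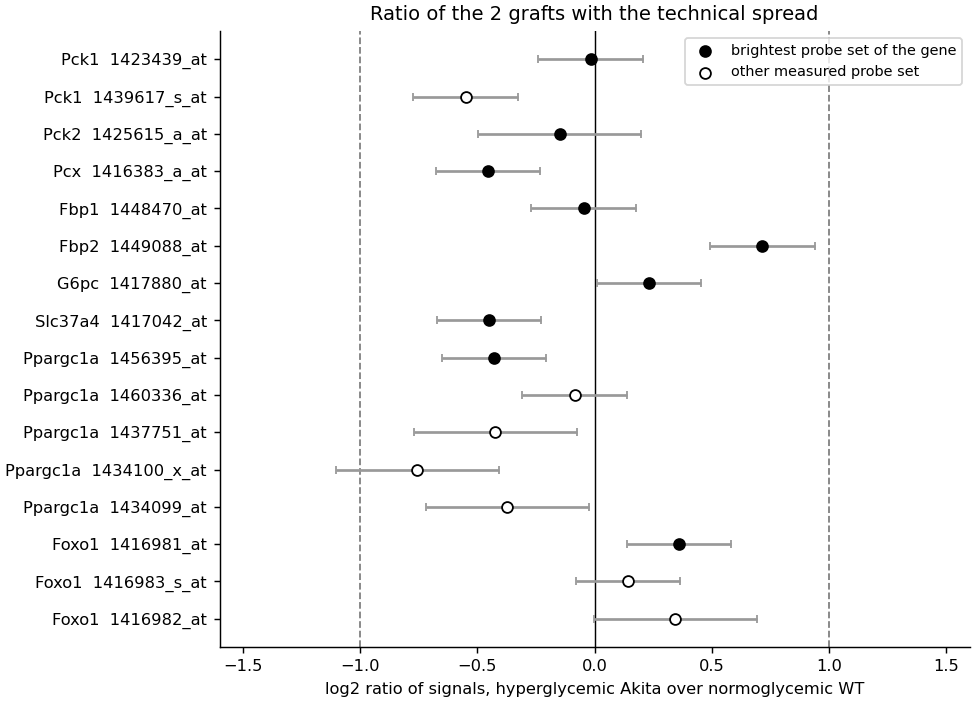
Signal ratio, as log2, of the graft from the hyperglycemic Akita mouse over the graft from the normoglycemic WT mouse (x axis) for the 16 measured probe sets of the members. Filled points are the brightest probe set of a gene, open points the others, bars 1 technical SD at that signal and dashed lines 2-fold, which no point reaches, while Fbp2 at 0.72 and a Ppargc1a probe set at -0.76 lie farthest from 0.

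Of the 9 members, 6 had a ratio on the brightest probe set beyond 1 technical SD. These were Pcx, Slc37a4 and Ppargc1a on the lower side and Fbp2, Foxo1 and G6pc on the higher side, with G6pc barely beyond it at 1.04 times the SD. Pck1, Pck2 and Fbp1 were within it. The brightest probe sets of Fbp2 and Foxo1 read on opposite sides of 1024 in the grafts, and the SD of 0.22 was used for them. Against the SD of 0.35 below that signal, Foxo1 at 0.36 would be barely beyond 1 SD. Among all measured genes, 47.3% lay beyond 1 technical SD, and as this SD is a spread within arrays and not between mice, the 6 of 9 say nothing particular about these genes.

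Other genes of the pathway were read from 5 lists, 55 measured genes in all, which were drawn up by function. Their median log2 ratio was -0.03, and 6 exceeded 2-fold upward and 1 downward, beside the same shares of 4.33% and 2.15% among all genes. All 5 measured enzymes of the reversible steps shared with glycolysis were within 2-fold, with log2 ratios from -0.20 to 0.15. Aldoa, an aldolase, had 14620 in the hyperglycemic graft and 16774 in the normoglycemic graft, and Pgk1, phosphoglycerate kinase, 16893 and 18950.

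Of 8 enzymes of the one-way glycolytic steps, which oppose gluconeogenesis, 1 exceeded 2-fold upward and 0 downward (median log2 ratio -0.04). The higher one was Hk3, a hexokinase of myeloid cells, with 397 in the hyperglycemic graft and 174 in the normoglycemic graft on a probe set that can bind several transcripts (1442798_x_at). Its other probe set (1435490_at) read 118 and 141, in the opposite direction. Pfkm, a phosphofructokinase, was 1.85-fold lower (429 and 795), and Pklr, the pyruvate kinase of liver and kidney was lower too (548 and 824, a log2 ratio of -0.59). Of 5 measured genes in the list of other glucose 6-phosphatases and Pfkfb enzymes, 1 was over 2-fold higher. This was Pfkfb3, which makes the fructose 2,6-bisphosphate that inhibits fructose bisphosphatase, at 475 in the hyperglycemic graft and 202 in the normoglycemic graft (2.35-fold). It was just under 2-fold with the array median added to both signals (a log2 ratio of 0.99). Its other probe set (1456676_a_at) was below the floor on both arrays, at 23.6 and 64.2.

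Among 17 genes of substrate entry and ammonia formation, 2 exceeded 2-fold upward and 0 downward, and the median log2 ratio was -0.16. Gpt, an alanine aminotransferase that turns alanine into pyruvate, had 680 in the hyperglycemic graft and 289 in the normoglycemic graft (2.36-fold) on a probe set that can bind several transcripts, and was below the floor on both arrays on the other. Pdk4, a kinase that keeps pyruvate from oxidation and that insulin lowers in many tissues, had 5640 and 2783 (2.03-fold), and was under 2-fold with median scaling and with centring on proximal tubule genes (log2 ratios of 0.88 and 0.99). Mdh1, the cytosolic malate dehydrogenase, had 45599 and 27655 on its brightest probe set, 1.65-fold higher, but 20334 and 24104 on another (1448172_at), so that its direction depended on the probe set. Ldhb, which makes pyruvate from lactate, had 27354 in the hyperglycemic graft and 33217 in the normoglycemic graft.

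Among 20 further regulators, 2 exceeded 2-fold upward and 1 downward, with a median log2 ratio of 0.17. Igfbp1, a binding protein of insulin-like growth factors and a liver target of Foxo1, had 1464 in the hyperglycemic graft and 436 in the normoglycemic graft (3.36-fold). Irs2, an adaptor of the insulin receptor that Foxo1 also activates in liver, had 332 and 140 (2.37-fold), and was under 2-fold with the array median added to both signals (a log2 ratio of 0.93). Foxo4, a relative of Foxo1, was 2.03-fold lower at 133 and 270, where the technical SD used was 0.63 on the log2 scale. It was under 2-fold with the array median added (a log2 ratio of -0.65). Its other probe set was below the floor on both arrays. Cebpb, a transcription factor that acts on the Pck1 promoter in liver, had 13174 and 7321 (1.80-fold higher), and Hnf4a, a nuclear receptor of liver and proximal tubule, 11144 and 13606.

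**Figure D4:**
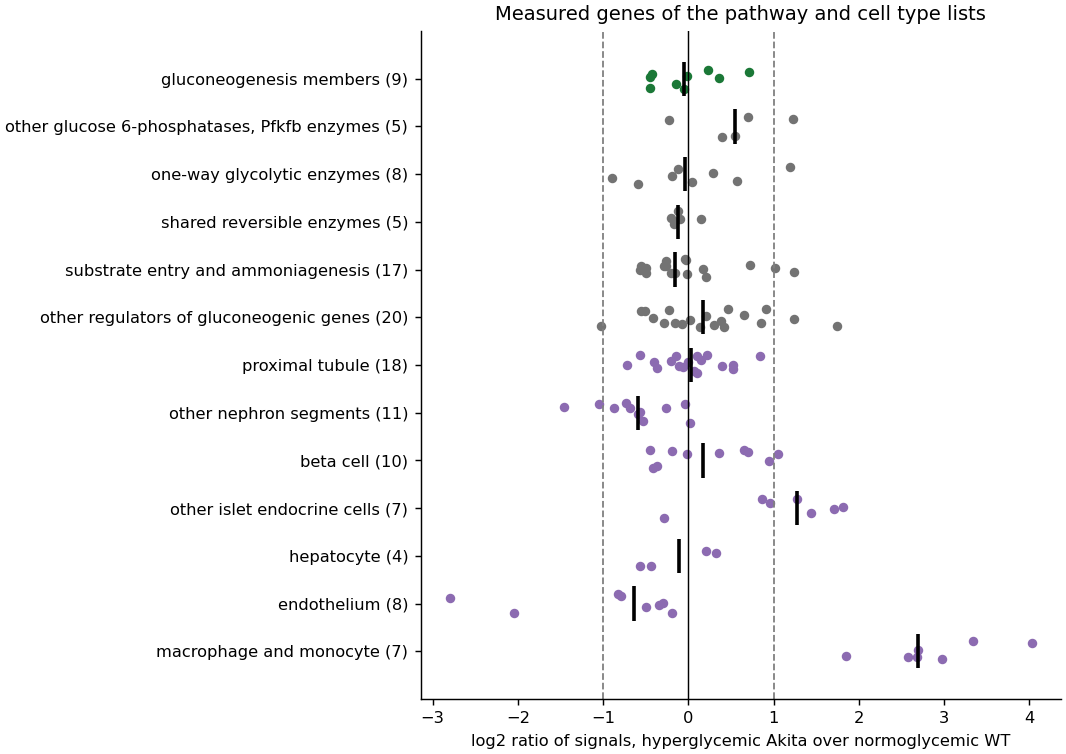
Signal ratio, as log2, of the graft from the hyperglycemic Akita mouse over the graft from the normoglycemic WT mouse (x axis), 1 point per measured gene, for the 9 members (green), 5 pathway lists (grey) and 7 of the cell type lists (purple), with the number of measured genes in brackets. Black bars are medians and dashed lines mark 2-fold, and the members center at -0.05 and the proximal tubule genes at 0.03, whereas macrophage and monocyte genes center at 2.69.

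The kidney part of the samples was checked on 18 markers of the proximal tubule, the kidney site of gluconeogenesis. All 18 were measured in both grafts and within 2-fold, with a median log2 ratio of 0.03 and a range from -0.72 to 0.84. Slc7a13, an amino acid transporter of the last tubule segment, was the highest of these ratios at 10510 in the hyperglycemic graft and 5887 in the normoglycemic graft. Napsa, an aspartic protease, was the lowest, at 7787 and 12798. The ratios of all 9 members lay within the range of these markers. In such bulk samples, fewer proximal tubule cells and less of a transcript per cell cannot be told apart.

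Markers of cells other than proximal tubule were also read. Of 7 hepatocyte markers, 3 were below the floor on both arrays and were named after this was seen, namely Apoa1 (57.7 in the hyperglycemic graft and 46.4 in the normoglycemic graft), Cps1 (51.1 and 79.2) and Ahsg (3.86 and 8.28), an apolipoprotein, a urea cycle enzyme and a liver glycoprotein. The other 4 hepatocyte markers were measured in both grafts and within 2-fold. Ttr had by far the highest signals of the list, 19247 in the hyperglycemic graft and 16614 in the normoglycemic graft. Which cells of the grafts gave the Ttr signal was not tested. Alb, albumin, had 492 and 393, Apoa2 407 and 554, and Fgb 167 and 248. All 7 macrophage and monocyte markers were over 2-fold higher, and their summed signal was 81436 in the hyperglycemic graft and 9961 in the normoglycemic graft. Most of that sum was Lyz2, with 55987 and 5539. The part of macrophages and monocytes in the signals of the members was not tested. Nor was it tested for Hk3, Pfkfb3, Irs2, Cebpb, Pdk4 and the other related genes. Of 10 measured beta cell genes, 9 were within 2-fold (median log2 ratio 0.17), and 4 of 7 genes of other islet endocrine cells were over 2-fold higher, with summed signals of 45643 in the hyperglycemic graft and 16942 in the normoglycemic graft. Of 11 genes of other nephron segments, 10 were lower and 2 of them over 2-fold lower. All 8 endothelial markers were lower with the signals as deposited (median log2 ratio -0.64). With low signals raised to the floor the median was -0.42, and 1 marker was over 2-fold lower. This was Tek, an angiopoietin receptor, at 80.2 in the hyperglycemic graft and 331 in the normoglycemic graft. Pecam1, named after its values were seen, read 12.5 in the hyperglycemic graft and 86.7 in the normoglycemic graft. Its log2 ratio was -2.80 as deposited and 0.08 with the floor. The part of these cells in the signals of the members was not tested.

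The directions of the members were compared under 4 other scalings of the arrays. All 9 members kept the sign of their ratio under each of them, and also when the median of all measured probe sets of a gene was taken. The sign of Pck1 and Fbp1 nevertheless says little, since their ratios were within the technical spread as deposited. Fbp1 was -0.42 on the log2 scale under quantile normalization, beside -0.05 as deposited. Pck1 was -0.28 as the median of its measured probe sets. Median scaling lowered all ratios, the median of all measured genes by 0.14 on the log2 scale, and G6pc was then at 0.09.

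**Figure D5:**
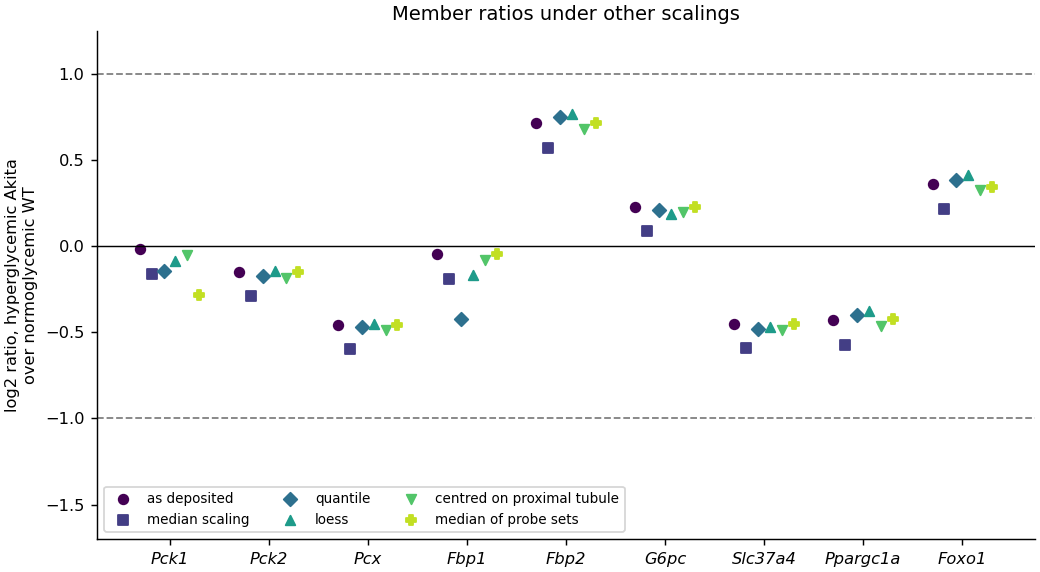
Log2 ratio of the 9 members, hyperglycemic Akita over normoglycemic WT (y axis), with the signals as deposited, under 4 other scalings and with the median of all measured probe sets of a gene (symbols). No member reaches 2-fold (dashed lines) under any of these, Fbp2 stays highest at 0.57 to 0.77, and the widest displacement is that of Fbp1 under quantile normalization (-0.42).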

How the data were processed

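The authors deposited 1 table of signal intensities on a linear scale, made with MAS5 from 1 MOE430 2.0 array per graft sample. The sources used here do not state the version or settings of MAS5, and Subio Platform is the analysis software in the methods. Labels gave the condition of each column. Of 45101 probe sets, 64 controls were left out, and of the rest only the 34945 with 1 gene symbol in the platform annotation were named.

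The members and lists were chosen with earlier results of these data known. Named genes were the 9 members with all probe sets. Of each other list they were up to 3 genes with the highest signals and up to 3 with the largest ratios. Also named were 5 muscle and hepatocyte markers and the endothelial marker Pecam1, which are marked in the text. Ratios were hyperglycemic Akita over normoglycemic WT, as log2. No test was possible with 1 array per condition, and the number of arrays limits the precision. Folds and counts were computed with signals below the array median raised to it, medians with the signals as deposited. The steps were run on simulated data with the same noise at all signals, whereas the spread of these arrays grows at low signals. That run therefore does not tell how often unchanged genes pass 2-fold here.

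Other scalings tried were to the array median, by quantiles, by loess (span 0.3, 3 iterations) and to proximal tubule genes. Other floors were the 25th percentile, the 75th percentile, no floor, and the array median as a pseudocount. Limits of 1.5-fold and 3-fold, a median over the probe sets of each gene, and a set without multi-transcript probe sets were also tried. Promoters are from RefSeq (GRCm38.p6). A planned comparison of protein sequences was not run. Python 3.11.15, numpy 2.4.6, pandas 2.3.3, statsmodels 0.14.6 and matplotlib 3.10.9 were used.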

Additional observations from a re-analysis of the deposited data

How the results depend on the processing

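Under the 12 alternatives, no member was over 2-fold higher or lower, except that the limit of 1.5-fold took in 1 gene, Fbp2. Among the probe sets of the members, the limit of 1.5-fold took in 2 (Fbp2 and 1 of Ppargc1a), and a floor at the 25th percentile took in 1, the Pck2 probe set that read 9.98 and 75.9. The median log2 ratio of the members ran from -0.19 to -0.02. It was below that of all measured genes with quantile normalization (-0.17 beside -0.06) and with loess (-0.15 beside -0.04). The same held for the median over probe sets (-0.15 beside -0.04) and for the array median added (-0.05 beside -0.03). Under the other settings it was slightly above, such as -0.19 beside -0.20 with median scaling. Of 87 single member values under the alternatives, 85 moved by less than 1 technical SD, and the other 2 were Fbp1 and Pck1 as given above. Many of these values could not move that far. The floors at the 25th and 75th percentile and no floor left the ratios as deposited, and so did leaving out multi-transcript probe sets. The array median added did change them, for Pck2 from -0.15 to -0.08. The median over probe sets could not move genes with 1 measured probe set. Median scaling and centring shifted all genes alike, by 0.14 and 0.03, less than the smallest SD of 0.22. Most unmoved values therefore say little. All 9 members kept their sign. Without probe sets that can bind several transcripts, Pcx had no probe set left and the remaining one of Pck2 was below the floor, so neither had a value. With a floor at the 75th percentile, Pck2 was not measured.

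Among the related genes, Igfbp1 stayed past the limit under all 12 alternatives, Gpt, Irs2, Pdk4, Pfkfb3 and Foxo4 under 9 each, and Hk3 under 7. These genes were picked for passing 2-fold as deposited, with both signals above the floor. The limit of 1.5-fold, the floor at the 25th percentile and no floor could therefore not take them out. The counts partly follow from that choice. Hk3 had a log2 ratio of -0.26 without probe sets that can bind several transcripts, since only the other probe set was left, and Gpt was then below the floor on both arrays. The number of all genes over 2-fold higher and lower, 543 and 269 as deposited, was 416 and 491 with median scaling, 1683 and 1285 with a floor at the 25th percentile, 166 and 50 with one at the 75th, 948 and 695 with no floor, and 490 and 142 with the array median added. With limits of 1.5-fold and 3-fold it was 1343 and 1302, and 210 and 32. No paired analysis was possible because each condition had 1 array. Low signals scatter more than high ones, and with 1 array per condition no spread between mice is known.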
